A study of Mus musculus with 6 samples.

Results

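The genes described were the 4 mouse Fc gamma receptors *Fcgr1*, *Fcgr2b*, *Fcgr3* and *Fcgr4*, the transmembrane adapters *Fcer1g* and *Tyrobp*, and the receptors *Trem2* and *Trem1*. They were chosen by gene symbol, and all 8 were found among the 56748 genes of the count table. RNA had been sequenced from 6 cultures of primary osteocytes, the cells embedded in bone matrix, isolated from the long bones of 7-week-old mice by digestion with trypsin, collagenase and EDTA and kept in culture for 7 days. The 3 WT cultures came from C57BL/6J mice (C57BL/6 in the description of the isolation), and 3 came from mice with *Gsdmd* fl/fl alleles and DMP1-Cre (cKO). LPS (10 ng/mL, 3 h) and then aluminum hydroxide (20 µg/mL, 3 h) were given to every culture of both groups, so that no unstimulated library was compared. DMP1-Cre acts where the *Dmp1* promoter is active, so other cells of such a culture may keep *Gsdmd*. No source used here says whether the 3 cultures of a group came from separate animals, and the p-values measure the spread between these libraries only.

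The counts on genes summed to between 39566835 and 49734046 per library. *Gsdmd*, the floxed gene, was counted 609, 699 and 549 times in WT and 885, 937 and 1045 times in the cKO group, so its count did not show the loss that the label names. Counts per gene cannot show whether the floxed exons were removed. The deletion was thus not checked here, and the second group is called the libraries labelled cKO throughout. *Xist* had 44817 to 51216 counts in the libraries labelled cKO and 0 to 4 in WT, and the Y-linked *Ddx3y* was counted 4033 to 5455 times in WT and 0 times in the other group, so that sex and genotype cannot be told apart. Of the 7 osteocyte markers listed, *Sost* and *Dkk1* were at 0 in every library and only *Pdpn* had enough counts to be tested. The labelled cell type was thus not borne out by the RNA of its defining markers. The paper identified the cells by immunofluorescence for the DMP1 protein. *Dmp1* RNA was counted 0, 0 and 4 times in WT and 2, 6 and 4 times in the libraries labelled cKO. All 14 macrophage markers listed were called higher in the libraries labelled cKO, that is, with an adjusted p below 0.05 from the edgeR quasi-likelihood test (Benjamini-Hochberg adjustment over all tested genes) and a log2 fold change of 1 or more in size. Their summed level was 1237 to 1392 counts per 1000000 (CPM) in WT and 6567 to 6890 CPM in the libraries labelled cKO, most of it *Lyz2*. In bulk RNA, more cells of a type and more RNA per cell cannot be told apart.

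Fc gamma receptors bind the constant part of IgG. Macrophages, osteoclast precursors and other myeloid cells carry activating and inhibitory receptors side by side, and the balance between them sets the response to immune complexes. The activating receptors have no signaling motif of their own in the mouse and pair with Fcer1g, the common gamma chain, whereas TREM1, TREM2 and many lectin receptors pair with Tyrobp (DAP12). Both adapters carry an immunoreceptor tyrosine-based activation motif (ITAM), a pair of tyrosines that recruits the kinase SYK once phosphorylated. In bone, the ITAM adapters provide the costimulation that osteoclast precursors need beside RANKL.

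The coding sequence of the ITAM sets the 2 adapters apart from the other 6 genes. The stretches below were read from the coding sequence of the canonical transcripts (GENCODE M39 on GRCm39), 5′ to 3′ on the coding strand, with the 2 tyrosine codons of the motif in capitals.
Tyrobp: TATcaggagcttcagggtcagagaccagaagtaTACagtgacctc
Fcer1g: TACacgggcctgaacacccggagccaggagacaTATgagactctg
The *Tyrobp* stretch covered residues 92 to 106 of 114 and spanned the junction of exons 4 and 5 of 5, within chr7:30115095-30116807 on the plus strand. The *Fcer1g* stretch covered residues 65 to 79 of 86, also across exons 4 and 5 of 5, within chr1:171057458-171057641 on the minus strand. The search asked for a tyrosine followed after 2 residues by leucine or isoleucine, and the same again 6 to 8 residues later. A match was found in 622 of 21663 canonical coding sequences, or 2.87%, and only in these 2 of the 8 genes. *Fcgr2b*, the inhibitory receptor, is known for a single-tyrosine inhibitory motif (ITIM) in its last exon, at chr1:170788640-170788657 on the minus strand, residues 270 to 275 of 293, with its tyrosine codon in capitals.
Fcgr2b: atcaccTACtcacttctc
The ITIM pattern is short and was present in 49.1% of all coding sequences and in 5 of the 8 genes, both adapters included, so that the letters alone describe little.

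Every one of the 8 genes passed the filter on low counts and was called higher in the libraries labelled cKO, as were 6.56% of the 17146 genes tested. None of the 8 was called lower, against 4.64% of all tested genes. The log2 fold changes lay between 2.17 and 4.25 with a median of 2.62, beside a median of 0.01 over all tested genes. For each of the 8 genes the lowest of the libraries labelled cKO lay above the highest WT library, which held for 25.3% of all tested genes. Summed over the 8 genes, the level was 75.4 to 93.7 CPM in WT and 502.9 to 529.9 CPM in the libraries labelled cKO. CPM are counts per 1000000 after TMM scaling, edgeR's correction for library size and composition.

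**Figure D1:**
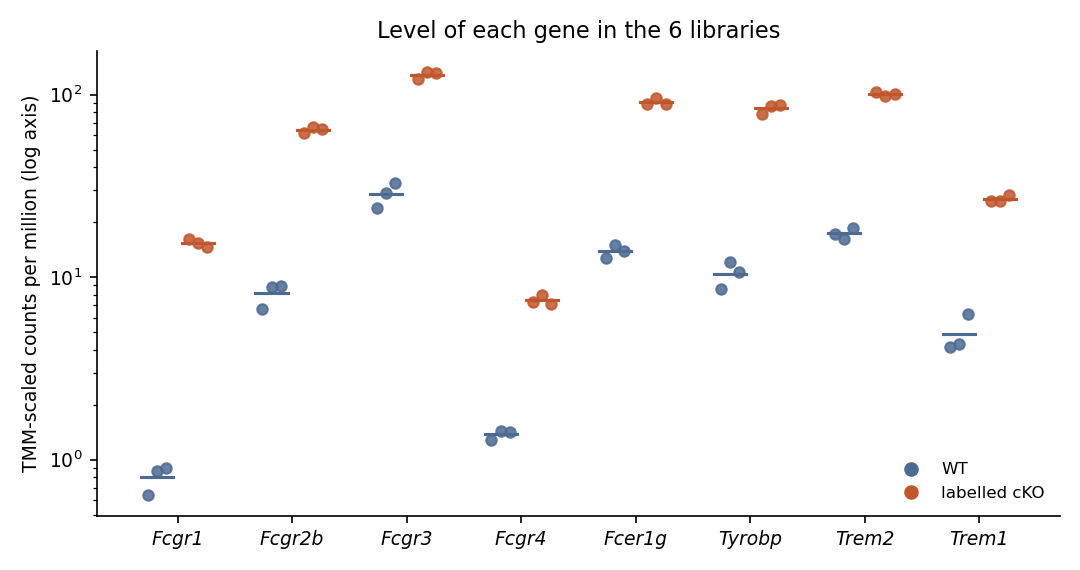
Level of the 8 genes in each library in TMM-scaled CPM on a log axis, with WT in blue, the libraries labelled cKO in orange, 1 point per library and a line at the mean of the 3. The groups are apart for every gene, from *Fcgr1* at 0.804 against 15.3 CPM to *Fcgr3* at 28.6 against 128.9 CPM.

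*Fcgr1* encodes the high-affinity receptor for IgG and lies on chromosome 3 from 96190225 to 96201285, away from the other Fc gamma receptors. It was counted 29, 43 and 35 times in WT and 678, 611 and 661 times in the libraries labelled cKO. It was low in every WT library and readily detected in every library of the other group. The level rose from 0.804 ± 0.14 to 15.3 ± 0.781 CPM (SD, n = 3 each). This log2 fold change of 4.25 (standard error 0.158) was the largest of the 8, with an adjusted p of 3.86e-13 from the edgeR quasi-likelihood test, Benjamini-Hochberg adjusted.

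*Fcgr2b* encodes the inhibitory receptor of the family and lies on chromosome 1 from 170786186 to 170804116. Its counts were 302, 440 and 346 in WT and 2586, 2634 and 2953 in the libraries labelled cKO. The level rose from 8.16 ± 1.26 to 64.2 ± 2.48 CPM (SD, n = 3 each), with a log2 fold change of 2.98 (standard error 0.090). The adjusted p was 2.10e-14 by the edgeR quasi-likelihood test, Benjamini-Hochberg adjusted. The inhibitory receptor thus rose together with the activating ones.

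*Fcgr3* and *Fcgr4* encode activating receptors that need Fcer1g, and both lie beside *Fcgr2b* on chromosome 1, from 170878743 to 170892504 and from 170846489 to 170857330. *Fcgr3* was counted 1082, 1441 and 1274 times in WT and 5139, 5298 and 5960 times in the libraries labelled cKO. *Fcgr4* was counted 58, 71 and 55 times in WT and 307, 318 and 325 times in the libraries labelled cKO. For both genes the spread inside each group was small beside the gap between the groups. *Fcgr3* rose from 28.6 ± 4.41 to 128.9 ± 5.91 CPM (SD, n = 3 each), a log2 fold change of 2.17 (standard error 0.081) and the smallest of the 8. *Fcgr4* rose from 1.38 ± 0.078 to 7.48 ± 0.451 CPM (SD, n = 3 each), a log2 fold change of 2.44 (standard error 0.174). Their adjusted p-values were 3.94e-13 and 2.96e-09 by the edgeR quasi-likelihood test, Benjamini-Hochberg adjusted.

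*Fcgr2b* and *Fcgr3* are near copies over part of their coding sequence, which bears on how reads were split between them. A full read of 150 bases reaches past their longest shared coding run, which was 129 bases, from codon 93 to codon 136 of *Fcgr2b*. The run is shown because its letters fit both genes.
Fcgr2b and Fcgr3: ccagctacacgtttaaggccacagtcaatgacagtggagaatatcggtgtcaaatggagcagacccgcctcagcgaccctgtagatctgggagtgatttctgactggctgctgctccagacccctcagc
Of the 100-base windows of the canonical transcripts, 44 of 3304 of *Fcgr2b* (1.3%) and 44 of 1446 of *Fcgr3* (3.0%) occurred in the other gene. No other pair among the 8 genes shared such a window, and the longest coding run of any other pair was 14 bases. These windows are shorter than a whole read, so their shares are not shares of reads that fit both genes. How the counting treated such reads is not given in the sources used here, and the resulting uncertainty in these 2 genes was not measured. Other genes of the table that overlap one of the 8 had at most 2 counts in any library.

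The adapter *Fcer1g* lies further along chromosome 1, from 171057141 to 171061934. Its counts were 574, 749 and 543 in WT and 3722, 3831 and 4022 in the libraries labelled cKO. *Tyrobp*, on chromosome 7 from 30113185 to 30117010, was counted 388, 597 and 413 times in WT and 3294, 3453 and 4006 times in the libraries labelled cKO. Both adapters were present in WT and severalfold higher in every library of the other group. *Fcer1g* rose from 13.9 ± 1.17 to 91.1 ± 4.53 CPM and *Tyrobp* from 10.4 ± 1.72 to 84.4 ± 5.37 CPM (SD, n = 3 each). The log2 fold changes were 2.71 (standard error 0.067) and 3.01 (standard error 0.091). The adjusted p-values were 1.90e-15 and 2.15e-14 by the edgeR quasi-likelihood test, Benjamini-Hochberg adjusted.

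*Trem2*, a receptor for lipids and lipoproteins that signals through Tyrobp, and *Trem1*, an amplifier of inflammatory responses with the same partner, lie on chromosome 17 from 48653429 to 48661175 and from 48539796 to 48553952. *Trem2* was counted 772, 805 and 725 times in WT and 4329, 3887 and 4557 times in the libraries labelled cKO. *Trem1* was counted 187, 213 and 244 times in WT and 1106, 1041 and 1286 times in the libraries labelled cKO. The 2 receptors rose by a similar factor. *Trem2* rose from 17.4 ± 1.24 to 100.3 ± 2.56 CPM, a log2 fold change of 2.53 (standard error 0.059), and had the smallest adjusted p of the 8 at 9.29e-16. *Trem1* rose from 4.91 ± 1.19 to 26.9 ± 1.20 CPM (SD, n = 3 each), a log2 fold change of 2.46 (standard error 0.128) with an adjusted p of 3.79e-11. Both p-values are from the edgeR quasi-likelihood test, Benjamini-Hochberg adjusted.

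**Figure D2:**
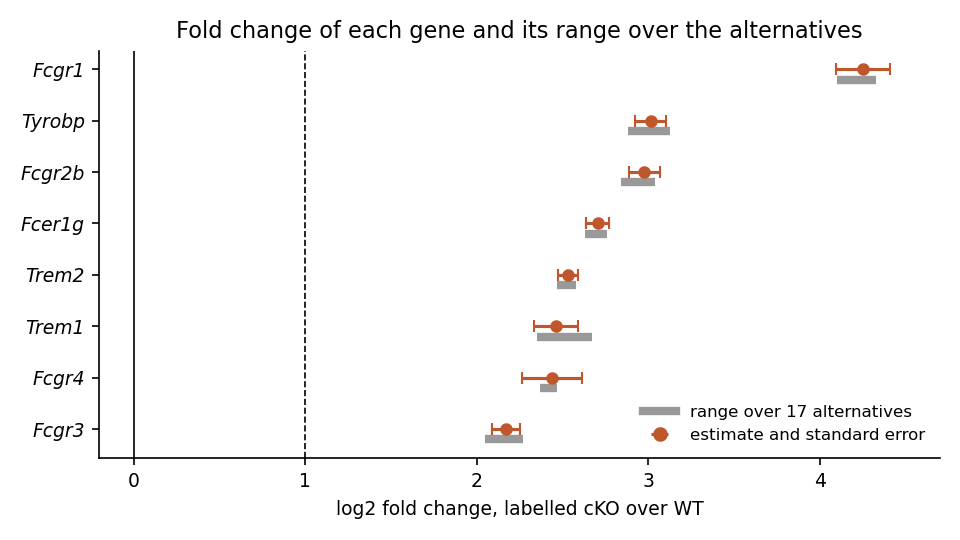
Log2 fold change of the libraries labelled cKO over WT for each gene, with its standard error (orange point and bar) and the range over 17 alternatives of test, scaling, filter, counting, pairing and left-out library (grey bar). The dashed line marks the limit of 1, and every range stays above it, the lowest value being 2.05 for *Fcgr3*.

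Levels of different genes can be compared only per length, and the gene length of the table was used first. In WT, *Fcgr3* at 16.5 ± 2.54, *Fcer1g* at 16.0 ± 1.34 and *Tyrobp* at 15.6 ± 2.57 CPM per kilobase (SD, n = 3 each) led, and their libraries overlapped. *Trem2* followed at 3.51, *Trem1* at 1.64, *Fcgr2b* at 1.41, *Fcgr4* at 1.10 and *Fcgr1* at 0.311 CPM per kilobase, with *Trem1* and *Fcgr2b* overlapping. In the libraries labelled cKO the order became *Tyrobp* at 126.6 ± 8.05, *Fcer1g* at 104.2 ± 5.18 and *Fcgr3* at 74.2 ± 3.41 CPM per kilobase (SD, n = 3 each), with no overlap between these neighbours. The adapters thus stood above the Fc gamma receptors there, while *Fcgr1*, at 5.93, reached the level of *Fcgr4*, at 5.96 CPM per kilobase, and overlapped with it.

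The place of *Trem2* in this order depended on the length used. The table gives *Trem2* a length of 4946 bases, whereas its canonical transcript has 1088 bases. With canonical lengths, an alternative added after the data had been seen, *Trem2* was at 16.0 ± 1.14 in WT and 92.2 ± 2.37 CPM per kilobase in the libraries labelled cKO (SD, n = 3 each), level with *Fcer1g* at 14.5 and 95.0. *Fcgr2b* likewise moved from 1.41 to 2.40 in WT and from 11.1 to 18.9 CPM per kilobase in the libraries labelled cKO.

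The make-up of the Fc gamma receptor transcripts differed between the groups. Of the summed level per canonical length of the 4 receptors, *Fcgr3* made up 83.0% ± 0.844 in WT and 73.2% ± 0.595 in the libraries labelled cKO (SD, n = 3 each). Canonical lengths were the alternative added after the data had been seen, and the shares depend on them. *Fcgr2b* has 5790 bases by the gene length used first and 3403 bases in its canonical transcript. Shares by the gene length used first are not given here. The share of the inhibitory *Fcgr2b* was 10.5%, 11.4% and 10.4% in the WT libraries and 16.6%, 16.5% and 16.6% in the libraries labelled cKO. The share of *Fcgr1* was 1.36% ± 0.071 in WT and 5.11% ± 0.435 in the libraries labelled cKO (SD, n = 3 each). Only the share of *Fcgr4* overlapped between the groups, at 4.88% ± 0.495 and 5.14% ± 0.242 (SD, n = 3 each).

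Ratios of counts inside a library do not depend on the scaling, and 15 were compared, 7 between the genes and 8 to the summed counts of the 14 macrophage markers. Each was tested with a two-sided exact permutation test, which cannot go below p = 0.1 for 3 libraries against 3, so no ratio could pass a threshold of 0.05. The groups did not overlap in 11 of the 15, each at p = 0.1 by the exact test, or 0.136 after Benjamini-Hochberg adjustment over the 15. The log2 ratio of *Fcgr2b* to *Fcgr3* was -1.84, -1.71 and -1.88 in WT and -0.99, -1.01 and -1.01 in the libraries labelled cKO, a difference of 0.81. The inhibitory *Fcgr2b* therefore gained on the activating *Fcgr3* in all 3 of the libraries labelled cKO. It did not outpace every activating receptor, since *Fcgr1* had the larger log2 fold change, 4.25 against 2.98. The ratio of *Fcgr2b* to *Fcgr1* was not among the 15. The ratio of *Fcgr1* to *Fcgr3* differed by 2.07, that of *Fcgr2b* to *Fcgr4* by 0.56 and that of *Fcgr4* to *Fcgr3* by 0.25 on the log2 scale.

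Between the adapters, the log2 ratio of *Fcer1g* to *Tyrobp* was 0.56, 0.33 and 0.39 in WT and 0.18, 0.15 and 0.01 in the libraries labelled cKO, so *Tyrobp* gained on *Fcer1g* by 0.32. *Trem2* fell behind its adapter *Tyrobp* by 0.49, from a mean log2 ratio of 0.74 ± 0.29 to 0.25 ± 0.12 (SD, n = 3 each). The ratio of *Trem2* to *Trem1* overlapped, at 1.84 ± 0.24 and 1.90 ± 0.07 (SD, n = 3 each), a difference of 0.06 with p = 0.9 by the exact permutation test, and it turned to -0.081 without WT replicate 3.

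Relative to the macrophage markers, only *Fcgr1* gained without overlap whichever way the 14 were combined, and the ratios of most other genes depended on *Lyz2*. *Lyz2*, which encodes lysozyme, made up 74.02 to 75.2% of the summed marker counts of the WT libraries and 66.62 to 66.95% of those in the other group, and its log2 fold change of 2.20 lay below the median of 2.89 over the 14 markers. Against the sum of all 14, *Fcgr1* gained 1.89, *Tyrobp* 0.67, *Fcgr2b* 0.63, *Fcer1g* 0.35 and *Trem2* 0.18 on the log2 scale, without overlap between the groups. The ratios of *Fcgr3*, *Fcgr4* and *Trem1* to that sum overlapped, with differences of -0.18, 0.07 and 0.12 and p = 0.2, 0.3 and 0.4 by the exact permutation test. Against the sum without *Lyz2*, a reference chosen after the data had been seen, *Fcgr1* still gained 1.51 and *Fcgr2b* 0.25 without overlap. *Tyrobp* and *Fcer1g* overlapped between the groups, with differences of 0.29 and -0.03. *Fcgr3*, *Fcgr4*, *Trem1* and *Trem2* lay lower in every library labelled cKO, by -0.56, -0.31, -0.26 and -0.21. With the mean of the log2 counts as the reference, which gives each marker the same weight, *Fcgr1* gained 1.41, *Fcgr2b* and *Tyrobp* overlapped between the groups, and the other 5 genes lay lower without overlap. The part of the macrophage markers in the rise of the 8 genes was not tested. WT replicate 1 gave the lowest WT level for 7 of the 8 genes, all but *Trem2*, and was also lowest in the marker sum, at 1237 CPM against 1338 and 1392 CPM.

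**Figure D3:**
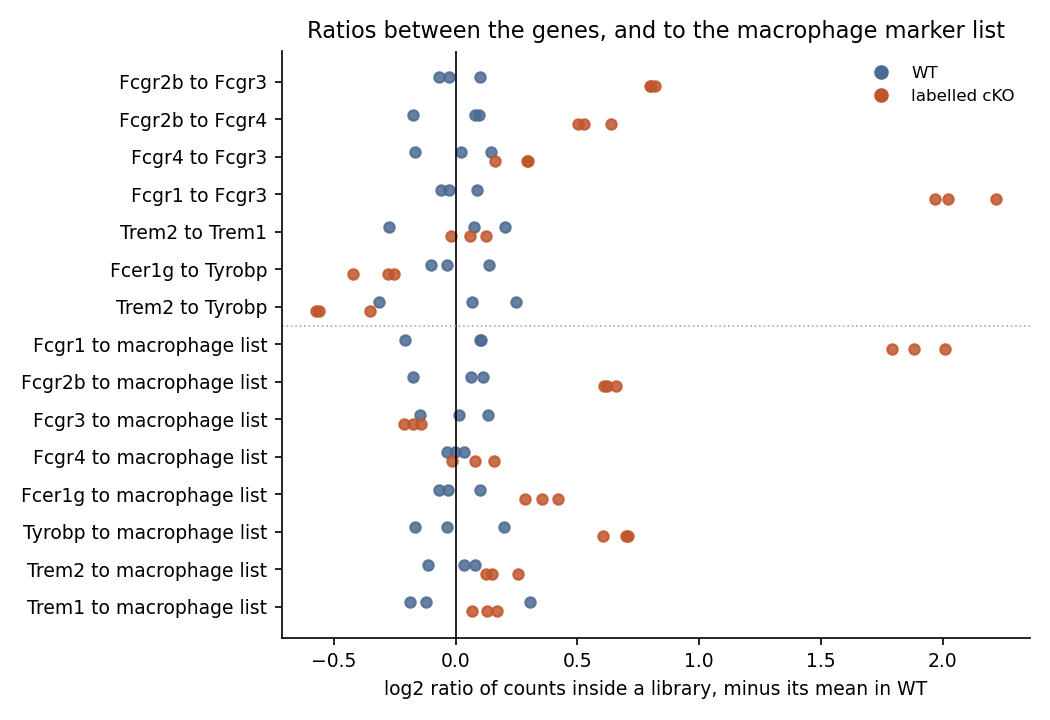
Log2 ratio of counts inside each library, minus the mean of that ratio in WT, with 1 point per library (WT in blue, the libraries labelled cKO in orange). Above the dotted line are the 7 ratios between the genes, and below it the 8 ratios to the summed counts of 14 macrophage markers, a sum that is mostly *Lyz2*, where *Fcgr1* shifted by 1.89 and *Fcgr3*, *Fcgr4* and *Trem1* overlap. Without *Lyz2* in the sum, *Fcgr1* shifted by 1.51 and *Fcgr4*, *Fcer1g*, *Trem2* and *Trem1* changed sign.

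The tested genes whose profile over the 6 libraries lay nearest to the mean profile of the 8 were *Adgre1*, *Cfp*, *Adam8*, *Tlr13* and *Arhgap45*. Likeness was the root mean square difference of log2 CPM with 0.5 added, each gene centred on its mean, and it was 0.043, 0.054, 0.056, 0.063 and 0.067 for the 5 genes. *Adgre1*, which encodes the F4/80 antigen and is on the macrophage marker list, rose from 36.4 ± 2.64 to 237.7 ± 7.13 CPM (SD, n = 3 each). *Cfp* encodes properdin, a complement factor, and *Adam8* a membrane protease of myeloid cells. The likeness is a description over libraries that fall into 2 groups.

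Other receptors that pair with the same adapters were higher as well. Of 24 such genes 23 were in the table and 15 were tested, of which 14 were called higher and 0 lower (median log2 fold change 2.72). The C-type lectin *Clec4d*, which senses fungal and mycobacterial glycolipids, rose from 48.3 ± 3.83 to 319.6 ± 6.61 CPM (SD, n = 3 each), a log2 fold change of 2.72. *Clec4n* (Dectin-2) rose from 45.2 ± 1.57 to 202.1 ± 9.32 CPM and *Cd300ld* from 6.92 ± 0.297 to 38.2 ± 0.925 CPM (SD, n = 3 each). *Lilra6* was counted 0, 2 and 2 times in WT and 94, 51 and 75 times in the libraries labelled cKO. *Oscar*, the osteoclast-associated receptor that uses Fcer1g, was the exception and did not pass, at 26, 23 and 24 counts in WT and 15, 12 and 15 counts in the libraries labelled cKO. The mast cell partner *Fcer1a*, the platelet partner *Gp6*, *Klrk1* and *Siglech* were at 0 in every library.

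Among other transmembrane adapters, *Hcst* (DAP10), the neighbour of *Tyrobp*, was called higher at 11, 15 and 6 counts in WT and 46, 74 and 78 counts in the libraries labelled cKO, a log2 fold change of 2.70 (standard error 0.426). The T cell receptor adapters *Cd3d*, *Cd3e* and *Cd3g* were at 0 in every library. All 3 tested members of the remaining TREM family were called higher, though on few counts. *Treml1* was counted 10, 14 and 6 times in WT and 52, 29 and 48 times in the libraries labelled cKO. *Trem3* was counted 4, 16 and 4 times against 22, 29 and 36 times, and *Treml4* 14, 0 and 0 times against 28, 18 and 30 times. The call of *Treml1* held without any 1 library. That of *Trem3* was lost without WT replicate 1 or cKO replicate 3, and that of *Treml4* without any 1 library other than WT replicate 1, with adjusted p up to 0.0567 and 0.0972 by the edgeR quasi-likelihood test.

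Of 13 listed receptors for antibodies outside the Fc gamma family, 3 were tested and 1 was called, *Fcrlb*, a gene related to Fc receptors that lies beside *Fcgr2b*. It was counted 2, 11 and 25 times in WT and 29, 38 and 45 times in the libraries labelled cKO, with an adjusted p of 0.0494 by the edgeR quasi-likelihood test, Benjamini-Hochberg adjusted. That call was lost with RLE or upper quartile scaling and without any 1 of 5 libraries (each but WT replicate 3), where the adjusted p reached 0.168. *Fcgrt*, the neonatal Fc receptor that protects IgG from degradation, was abundant in both groups at 119.8 ± 3.75 and 142.5 ± 0.973 CPM (SD, n = 3 each), a log2 fold change of 0.25. The intracellular antibody receptor *Trim21* had a log2 fold change of 0.47. Both passed the test and stayed under the fold limit. Receptors for IgE, IgM and IgA were scarce, with *Fcer1a*, *Fcmr* and *Pigr* at 0 in every library.

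Of 29 tested kinases and adapters downstream of the ITAM, 17 were called higher and 0 lower (median log2 fold change 1.93). *Syk*, the kinase that binds the phosphorylated ITAM, rose from 34.9 ± 0.634 to 135.9 ± 1.36 CPM (SD, n = 3 each), a log2 fold change of 1.96 (standard error 0.048). The Src family kinase *Lyn* rose from 15.5 ± 1.07 to 58.9 ± 2.53 CPM and *Fgr* from 0.556 ± 0.028 to 7.38 ± 0.321 CPM (SD, n = 3 each). *Pik3ap1*, an adapter for phosphoinositide 3-kinase, rose from 10.1 ± 1.72 to 98.6 ± 5.83 CPM. *Card9*, which carries the signal of ITAM receptors from SYK to NF-κB, was counted 53, 69 and 39 times in WT and 398, 387 and 449 times in the libraries labelled cKO. This gave a log2 fold change of 3.01 (standard error 0.170), at an adjusted p of 1.19e-10 by the edgeR quasi-likelihood test, Benjamini-Hochberg adjusted. Its partners *Malt1* and *Bcl10* had log2 fold changes of 0.62 and -0.23, both past the test and under the fold limit. The broadly expressed relatives *Src*, *Fyn*, *Vav2* and *Plcg1* passed in the other direction, with log2 fold changes of -0.33, -0.25, -0.41 and -0.17, all under the fold limit.

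Of 17 tested inhibitory receptors, phosphatases and adapters, 11 were called higher and 0 lower (median log2 fold change 1.75). *Sirpa*, the receptor for CD47, rose from 122.2 ± 3.49 to 380.4 ± 9.88 CPM, *Pirb* from 12.5 ± 2.14 to 98.6 ± 5.19 CPM and *Lilrb4a* from 13.6 ± 0.489 to 88.3 ± 2.47 CPM (SD, n = 3 each). *Dok2*, an adapter that dampens receptor signaling, had the largest change of the list, from 1.15 ± 0.288 to 11.0 ± 0.678 CPM (SD, n = 3 each). *Inpp5d* (SHIP1), the phosphatase that acts downstream of the *Fcgr2b* product, had a log2 fold change of 3.03. The other 6 stayed under the fold limit. The ubiquitin ligases *Cbl* and *Cblb* passed upward at 0.33 and 0.21, the broadly expressed phosphatase *Ptpn11* and the adapter *Dok1* passed downward at -0.31 and -0.24, and *Csk* and *Ptpn22* did not pass.

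**Figure D4:**
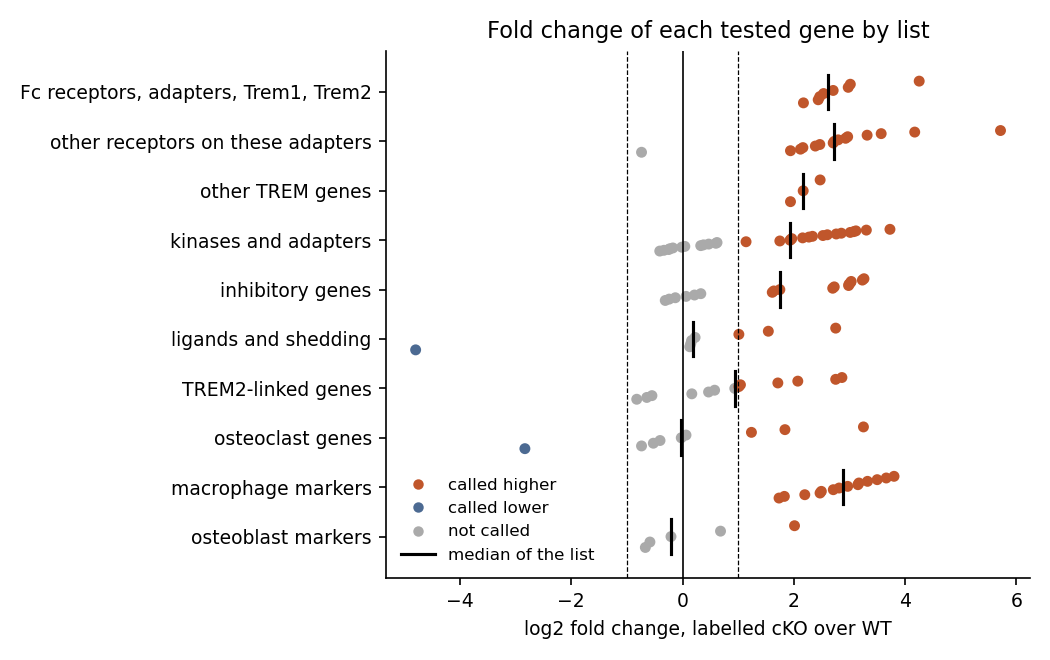
Log2 fold change of every tested gene in 10 of the gene lists, with called genes in orange (higher) or blue (lower), other genes in grey, a black line at the median of each list and dashed lines at the limits of 1 and -1. The 8 genes have a median of 2.62, the receptors on the same adapters 2.72, the macrophage markers 2.89 and the osteoclast genes -0.02, and the outermost points (*Lilra6* and *Pglyrp1*) rest on groups with 0 to 2 counts.

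The ligands were less uniform. Of 8 tested genes for ligands and shedding proteases, 3 were called higher and 1 lower (median log2 fold change 0.19). The TREM2 ligands *Apoe* and *Clu* rose from 40.8 ± 2.00 to 274.6 ± 7.90 CPM and from 289.4 ± 2.52 to 842.3 ± 10.5 CPM, and the lectin *Lgals3* from 450.8 ± 30.8 to 909.1 ± 16.1 CPM (SD, n = 3 each). The log2 fold change of *Lgals3*, 1.01, lay at the limit and went under it without WT replicate 3 or cKO replicate 2. *Pglyrp1*, a ligand of TREM1, was called lower, at 18, 25 and 25 counts in WT and 2, 0 and 0 counts in the libraries labelled cKO. The proteases *Adam10* and *Adam17*, which shed TREM2, had log2 fold changes of 0.15 and 0.23, past the test and under the fold limit. Antibody genes were nearly absent, with *Ighg1*, *Ighg2b*, *Ighg3*, *Ighe* and *Igkc* at 0 in every library.

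Genes linked to TREM2 signaling in microglia were divided. Of 13 tested, 6 were called higher and 0 lower, and 10 passed the test upward and 3 downward, with a median log2 fold change of 0.94. *Gpnmb* rose from 712.2 ± 54.5 to 2992 ± 98.6 CPM, *Ctsd* from 1025 ± 36.4 to 2108 ± 48.5 CPM and *Itgax* from 0.774 ± 0.307 to 5.57 ± 0.929 CPM (SD, n = 3 each). *Spp1* (osteopontin), *Axl* and *Csf1* passed downward with log2 fold changes of -0.64, -0.82 and -0.55.

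Genes linked to osteoclast differentiation, a list that holds the receptors *Tnfrsf11a* and *Oscar* beside genes downstream of this costimulation, did not move together. Of 9 tested, 3 were called higher and 1 lower (median log2 fold change -0.02). *Tnfrsf11a*, which encodes RANK, rose from 1.68 ± 0.256 to 16.0 ± 1.53 CPM, *Atp6v0d2* from 21.4 ± 2.00 to 76.6 ± 10.2 CPM and *Acp5* from 5.70 ± 0.953 to 13.5 ± 0.336 CPM (SD, n = 3 each). *Mmp9* fell from 21.9 ± 3.70 to 3.05 ± 0.609 CPM (SD, n = 3 each), and *Ctsk* and *Itgb3* passed downward under the fold limit, with log2 fold changes of -0.41 and -0.53. *Nfatc1*, the transcription factor that ITAM calcium signals activate in osteoclast precursors, had 88.5 ± 1.26 and 87.1 ± 1.02 CPM (SD, n = 3 each), a log2 fold change of -0.02 that did not pass.

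Several of the 8 genes are also expressed by neutrophils, mast cells, B cells, dendritic cells or platelets, and most markers of those cells were near 0. Of 9 neutrophil markers, *S100a9* and *Retnlg* were at 0 in every library, and the 9 summed to 4.69 to 7.96 CPM in WT and 10.1 to 11.2 CPM in the libraries labelled cKO. *S100a8* was called higher at 55, 59 and 31 against 136, 140 and 142 counts. *Camp*, the most abundant of them, passed upward at 225, 329 and 145 against 289, 266 and 367 counts, a log2 fold change of 0.49 under the fold limit. Of 9 mast cell markers none was tested and 5 were at 0, the sum being at most 0.555 CPM in WT and 0.088 CPM in the libraries labelled cKO. B cell markers summed to 0.386 to 1.31 CPM in WT and 2.19 to 2.97 CPM in the libraries labelled cKO, with *Cd22* called higher and *Ms4a1* at 0, while *Pax5*, too scarce to be tested, was counted 13, 29 and 8 times in WT and 2, 6 and 2 times in the libraries labelled cKO. None of 8 T and NK cell markers was tested, and 6 were at 0. Dendritic cell markers summed to 2.78 to 3.51 CPM in WT and 5.97 to 9.30 CPM in the libraries labelled cKO, with *Itgax* called higher and *Flt3* at 0. Platelet markers summed to 36.3 to 40.3 CPM in WT and 173.1 to 195.8 CPM in the libraries labelled cKO, where *Pf4*, also made by macrophages, was called higher. The platelet chemokine *Ppbp* passed downward at 970, 941 and 850 against 618, 556 and 618 counts, a log2 fold change of -0.56 under the fold limit. *Itga2b* did not pass at 96 to 114 and 112 to 171 counts, and *Gp9*, *Gp1bb* and *Gp6* were at 0.

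The skeletal markers showed no common direction. Of 5 tested osteoclast markers 2 were called higher and 1 lower, with sums of 142.5 to 151.8 CPM in WT and 150.2 to 181.1 CPM in the libraries labelled cKO. *Ctsk* (cathepsin K), the most abundant of them in WT, passed downward from 96.6 ± 3.86 to 73.0 ± 6.87 CPM (SD, n = 3 each), a log2 fold change of -0.41 under the fold limit. Osteocyte markers summed to 226.3 to 241.2 CPM in WT and 189.1 to 195.9 CPM in the libraries labelled cKO, nearly all of it *Pdpn*. Osteoblast markers summed to 5571 to 6207 CPM in WT and 3609 to 3890 CPM in the libraries labelled cKO, nearly all of it *Col1a1*. Among 5 tested, *Ibsp* was called higher, from 1.73 ± 0.527 to 6.92 ± 1.01 CPM (SD, n = 3 each). *Alpl* passed upward with a log2 fold change of 0.68, under the fold limit. *Col1a1*, *Sp7* and *Runx2* passed downward with log2 fold changes of -0.67, -0.59 and -0.21, all under the fold limit.

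Most of the 8 genes lie in gene clusters, 3 Fc gamma receptors and *Fcer1g* on chromosome 1 and the TREM genes on chromosome 17. The genes beside them were read from the same fit, a choice made after the data had been seen. Within 100 kb of the stretch from *Fcgr2b* to *Fcer1g*, 17 other protein-coding genes were tested, of which 2 were called higher, *Fcrlb* and *Pcp4l1*, and 14 did not pass. *Pcp4l1* was counted 12, 2 and 6 times against 28, 43 and 23 times, and its call was lost without cKO replicate 2, with an adjusted p of 0.0561 by the edgeR quasi-likelihood test. Between *Fcgr3* and *Fcer1g*, *Tomm40l*, which serves mitochondria, had a log2 fold change of 0.05 and *Sdhc* one of -0.01. *Apoa2*, between *Tomm40l* and *Fcer1g*, had 1.42 on 9, 16 and 1 against 13, 31 and 20 counts. *Nr1i3*, also in this stretch, had 0.87, and neither *Apoa2* nor *Nr1i3* passed. The rise was thus interrupted by some genes at a fold near 1. Around *Trem1* and *Trem2*, 7 other protein-coding genes were tested and 5 were called higher, namely *Treml1*, *Trem3*, *Treml4*, *A530064D06Rik* and *B430306N03Rik*. *A530064D06Rik* was counted 27, 35 and 36 times in WT and 452, 466 and 576 times in the libraries labelled cKO, and *B430306N03Rik* 75, 91 and 76 times against 893, 882 and 805 times. Beyond *Treml1*, *Nfya*, a subunit of a general transcription factor, had a log2 fold change of 0.43, and *Oard1* 0.18.

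Near *Tyrobp*, *Hcst* and *Nfkbid*, an inhibitor-like regulator of NF-κB, were called higher among 7 tested neighbours, with log2 fold changes of 2.70 and 1.39. *Aplp1* passed in the other direction at -0.90, under the fold limit. Near *Fcgr1*, which lies among histone genes, 4 of 6 tested neighbours did not pass, and *H3c15* and *H2ac19* passed downward at -0.78 and -0.75, under the fold limit.

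**Figure D5:**
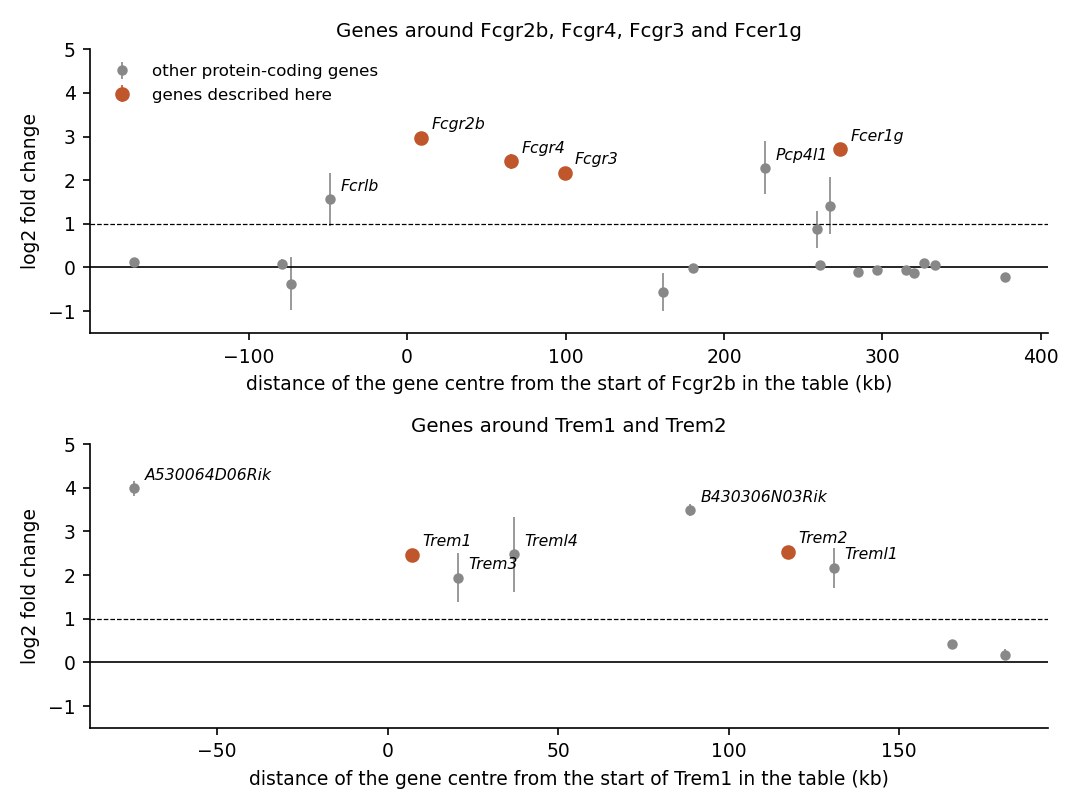
Log2 fold change with its standard error of the tested protein-coding genes around the Fc gamma receptor cluster (top) and the TREM cluster (bottom), against the distance of the gene centre from the start of *Fcgr2b* or *Trem1* in kb. The genes described are in orange, between 2.17 and 2.98 in the upper panel, where most other genes lie near 0, while in the lower panel 5 of 7 other genes lie above the dashed limit of 1.

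The proximal promoters of 7 of the 8 genes, all but *Tyrobp*, were read for 2 short sequence patterns, from 250 bases before to 50 bases after the start of the canonical transcript. GAGGAA, the core of the site of the myeloid factor PU.1, was present on either strand in 5 of the 7 promoters and in 27.5% of 21770 protein-coding promoters. TGANTCA, a loose form of the AP-1 site that allows any base in the middle, was present in *Trem2* only and in 7.1% of all promoters. The *Trem2* match reads TGAATCA, with an A where the usual AP-1 site has C or G. The 150 bases before the start of *Fcer1g* and *Trem2*, an adapter and a receptor, are shown, 5′ to 3′ on the strand of the gene, with the matches in capitals (GAGGAA reads TTCCTC on the other strand).
Fcer1g: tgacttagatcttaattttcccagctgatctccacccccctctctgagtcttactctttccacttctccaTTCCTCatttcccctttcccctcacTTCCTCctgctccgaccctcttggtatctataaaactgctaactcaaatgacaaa
Trem2: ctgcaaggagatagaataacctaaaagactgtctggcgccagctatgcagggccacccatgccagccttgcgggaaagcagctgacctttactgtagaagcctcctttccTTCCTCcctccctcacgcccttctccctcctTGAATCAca
These are chr1:171062220-171062369 on the minus strand and chr17:48653279-48653428 on the plus strand of GRCm39. In *Fcer1g* the matches start 80 and 55 bases before the transcript start, and in *Trem2* 40 bases before it. Offsets of the other GAGGAA matches from the transcript start were -179 and 41 in *Trem1*, -2 in *Fcgr1* and 7 in *Fcgr4*. The *Fcgr1* match thus spans the start, and the *Fcgr4* match lies inside the transcript. The TGANTCA match of *Trem2* starts 9 bases before the transcript start. *Fcgr2b* and *Fcgr3* had no match in this window, which says only that these letters are not in it. Both genes are on the minus strand, and their windows lay inside the genes as counted. The windows reached up to 170803946 for *Fcgr2b* and 170887414 for *Fcgr3*, whereas the counted genes begin at 170804116 and 170892504. The bases at those gene starts were not read. A match is a description of the letters, and binding was not measured here.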

How the data were processed

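RNA of 6 cultures was sequenced as 150 bp paired reads from a directional kit. The authors trimmed the reads, aligned them to mm39 with HISAT2 2.0.5 and deposited raw counts per gene from featureCounts (1.55.0-p3 in the submitters' processing notes; the methods give another release and also name RSEM), with a gene length in bases. The strand setting is not given in the sources used here. All columns of counts matched a library, with 0 left out. Counts halved and rounded up, as if both mates of a pair had been counted, were one alternative.

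The counts were analysed with edgeR 4.0.16 in R 4.3.3 (filterByExpr, TMM, glmQLFit, glmQLFTest, group as the only term), with Benjamini-Hochberg adjustment over 17146 genes. The biological coefficient of variation was 8.36%. Chi-square statistics between replicates were 4.82 to 14 per gene, above sampling noise, so all 6 libraries were counted separately. Ratios used counts with 0.5 added and scipy 1.17.1. The procedure was tested on simulated data. Alternatives were DESeq2 1.42.0, limma-voom (limma 3.58.1), edgeR's exact test, a robust fit, other scalings, filters and limits, the replicate number as a block and each library left out. The library totals, 39566835 to 49734046 counts, limit the precision of genes with few counts.

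The genes and the 19 other lists were chosen with earlier results of these data known. Genes named from a list were the 3 most abundant called genes and the called gene with the largest change in each direction, and the 5 nearest profiles were added; the other genes named were chosen after their values were seen. Sequences came from GENCODE M39 on GRCm39, where 55980 listed genes had the same chromosome and, of these, 76.7% an identical start or end. Proteins were translated from its coding sequences with Biopython 1.88, in place of the RefSeq proteins planned. The promoter of *Tyrobp* is not reported here.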

Additional observations from a re-analysis of the deposited data

How the results depend on the processing

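All 8 genes kept their call under the 17 alternatives of test, scaling, filter, counting, pairing and left-out library run for each gene, with log2 fold changes from 2.05 (*Fcgr3*) to 4.33 (*Fcgr1*), and with the limit on the log2 fold change dropped or raised to 2. Without a limit on the fold change, 5 kinases and adapters and 2 inhibitory genes were lower, where 0 were with it, by construction. The log2 ratio of *Trem2* to *Trem1* differed by between -0.081 (without WT replicate 3) and 0.155 (without WT replicate 1), and the cause was not tested. The 2 other references for the macrophage markers, chosen after the data had been seen, turned the ratio of 4 genes. Without *Lyz2* in the sum the difference was -0.309 for *Fcgr4*, -0.031 for *Fcer1g*, -0.207 for *Trem2* and -0.262 for *Trem1*, and with the mean log2 count it was -0.413, -0.134, -0.311 and -0.366. Among the values of single genes, lists, ratios and levels, 834 alternatives stayed within the tolerance (1.5 times for a count of genes, 1 SD between replicates for a ratio or level, the same call for a gene), 53 moved beyond it and 9 reversed. With upper quartile scaling 1043 genes were called higher and 892 lower, against 1124 and 796, and the median over all genes was -0.06. Without a limit the counts were 3445 and 3285, and with a limit of 2 they were 540 and 333. The replicate numbers did not pair the libraries, since deviations from the group means correlated by -0.01 to 0.02, and the replicate block left the 8 genes called higher, with 1087 higher and 772 lower genes in the whole table. Of 88 called genes of the lists and neighbours, 6 lost their call without 1 library or with another scaling, namely *Fcrlb*, *Pcp4l1*, *Trem3* and *Treml4*, which have few counts, and *Lgals3* and *Ctsd*, whose log2 fold changes of 1.01 and 1.04 lie at the limit.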
